A study of Rattus norvegicus with 8 samples.

Results

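Genes that make cholesterol, hold its synthesis in check, and move it into, through and out of the cell were examined in the livers of rats that drank hydrogen water or control water. The set lists 31 genes, of which 28 had a probe set (a short group of array probes directed at a transcript) carrying that single gene symbol, out of 14217 genes with such a probe set. Where a gene had several, the brightest on average over the 8 arrays stands for it. Of the 28 genes, 17 encode synthesis enzymes, 4 control SREBP2, 4 act in uptake, transport and esterification, and 3 in efflux. Hmgcs1, Npc1 and Soat2 had no such probe set and were not analysed here. All 28 passed the filter on dim probe sets, which kept the 15521 probe sets with a mean at or above the median.

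The hydrogen water group comprised 4 arrays of liver RNA from male rats of the outbred Sprague-Dawley strain given water with 0.7 mM dissolved hydrogen for 4 weeks. The control group comprised 4 arrays from male Sprague-Dawley rats given sterilized distilled water for the same 4 weeks. All rats entered the study at 4 weeks of age, were 8 weeks old by the labels, ate the same commercial diet freely, and were anesthetized with diethyl ether before the liver was removed. The study kept 8 animals per group. Nothing in the labels ties an array to an animal or excludes pooled RNA, so each p-value reflects only how far these arrays spread, which may be technical. The question is how drinking hydrogen water bears on transcript levels in the liver.

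Cells build cholesterol from acetyl-CoA through mevalonate, farnesyl diphosphate, squalene and lanosterol, and the liver is a main site of this synthesis in mammals. The transcription factor SREBP2 turns the enzyme genes on when sterols in the endoplasmic reticulum are low. Its escort SCAP and the retention proteins INSIG1 and INSIG2 hold it back when sterols are plentiful. Surplus sterol leaves hepatocytes through ABC transporters, whose genes respond to the oxysterol receptors LXR.

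Values are log2 signals, that is log2 of the quantile-normalized array signal plus a pseudocount of 2.05, and differences are hydrogen water minus control on that scale. The arrays carried no common scale as deposited, with 2% trimmed mean signals from 80.3 to 131.6. These averaged 91.5 ± 10.4 with hydrogen water and 115.2 ± 18.7 in controls (SD, n = 4 each). An exact permutation test, two-sided, gave p = 0.114, where 0.0286 is the smallest p possible. As a measure of RNA integrity, the 3′ probe set of Gapdh exceeded the 5′ one on the log2 scale by 0.38 ± 0.08 with hydrogen water and 0.22 ± 0.10 in controls (SD, n = 4 each), with p = 0.0571 in the same exact permutation test. The same measure for Actb was 1.64 ± 0.05 with hydrogen water and 1.60 ± 0.03 in controls (SD, n = 4 each), with p = 0.343 in the exact permutation test. Hepatocyte markers were bright on every array: the summed normalized signal of 6 of them, albumin included, was 43606 to 47266 with hydrogen water and 40971 to 45586 in controls. Of 30 listed markers of Kupffer, endothelial, stellate, bile duct, lymphoid and erythroid cells, 17 passed the filter. In limma 0 of these passed an adjusted p of 0.05, and an unadjusted p under 0.05 was seen at 2. That share is close to the 12.5% of all tested probe sets. Both are endothelial, Stab2 at 0.42 ± 0.13 and Lyve1 at 0.38 ± 0.13 (difference ± SE), while the other endothelial markers past the filter, Kdr and Pecam1, lay at −0.10 ± 0.10 and −0.04 ± 0.17. With array brightness as a covariate 0 of 28 cholesterol genes passed, and squalene epoxidase (Sqle), the gene with the smallest p, differed by 0.91 ± 0.26 (SE). What part RNA integrity plays in the results below was not tested. In bulk tissue, fewer cells of a type and less RNA per cell cannot be told apart.

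None of the 28 cholesterol genes differed between the groups past an adjusted p of 0.05 in limma, where 0.818% of all 15521 tested probe sets did, 0.445% higher with hydrogen water and 0.374% lower. Adjusted p-values of the 28 ran from 0.119 to 0.989. Sqle, the sterol exporter subunit Abcg8 and the isomerase Idi1 came closest, all higher with hydrogen water, by 1.65-fold, 1.93-fold and 1.77-fold. These 3 were the only members with an unadjusted p under 0.05, against 12.5% of all tested probe sets, 6.08% higher and 6.44% lower. Sqle alone had groups that did not overlap, against 7.48% of all tested, and 3.85% with the hydrogen water arrays on top. Over the 28 genes 20 differences lay above 0 and 8 below, with a median of 0.11, while 49.8% of all tested probe sets lay above 0 with a median of 0.00. For 24 of the 28 the 95% confidence interval of the difference excluded a 2-fold change in either direction, against 91.8% of all tested probe sets. For 15 of the 28 it excluded a 1.5-fold change, against 61.8% of all tested. The 4 genes for which a 2-fold difference remained within the interval were Sqle, Idi1, Insig1 and Abcg8. Like the p-values, these intervals reflect only the spread of these arrays, and only under the reported normalization. They set no bound on a difference between rats.

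**Figure D1:**
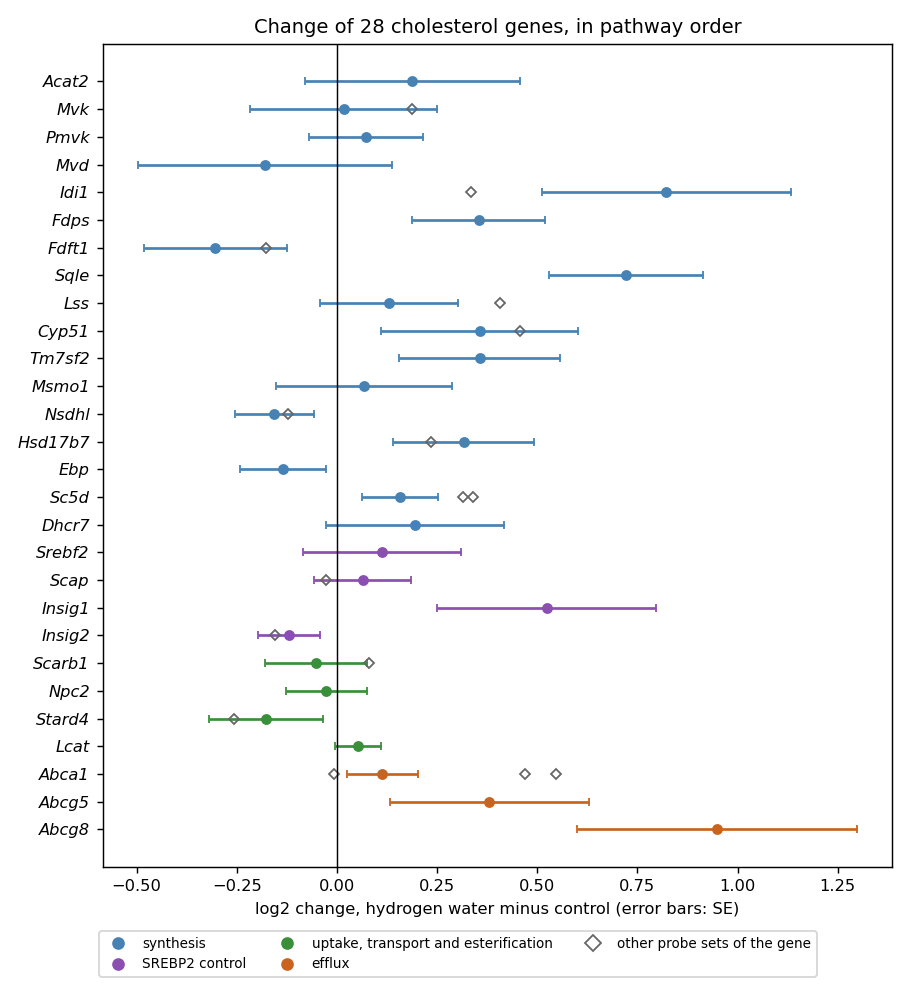
Log2 difference, hydrogen water minus control (horizontal axis), of the 28 cholesterol genes in pathway order (vertical axis). Filled circles with bars give the difference and its SE at each gene's brightest probe set, coloured by role, and open diamonds give the gene's other probe sets past the filter. The circles run from −0.30 at Fdft1 to 0.95 at Abcg8.

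The synthesis enzymes leaned upward, with 13 of 17 differences above 0 and 4 below and a median of 0.16, and none passed in limma. A difference above 0.3 was seen at 6 of the 17, against 9.79% of all tested probe sets. The enzymes also spread more within groups, with a median SD of 0.25 with hydrogen water and 0.33 in controls, against 0.20 over all tested. A wider spread can by itself put more differences past a fixed cut. Genes read on the same arrays are not independent, and whether these counts exceed what the spread gives was not tested. The upward direction is relative to the other probe sets on the arrays. Without normalization the median of all tested probe sets was −0.33, and 8.23% of them lay above 0. There 5 of 17 enzymes lay above 0, although 12 of 17 lay above that median. Values given below without normalization are to be read beside that median of −0.33. With median, trimmed mean, spike-in and loess scaling 11, 12, 13 and 13 of 17 lay above 0. The median of the enzymes was 0.30 without control array 1, 0.06 without control array 2 and 0.07 without hydrogen water array 4.

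The early steps, from acetyl-CoA to farnesyl diphosphate, were represented by 6 enzymes, with a median difference of 0.13. Idi1, which interconverts isopentenyl and dimethylallyl diphosphate, the building blocks of all isoprenoids, had log2 signals of 7.91, 8.08, 7.80 and 8.24 with hydrogen water and of 8.26, 6.96, 6.40 and 7.11 in controls. The hydrogen water arrays lay close together, and control array 1 was above all of them while the other 3 controls lay below all of them. The difference was 0.82 ± 0.31 (SE, adjusted p = 0.296 in limma, 95% confidence interval 0.14 to 1.51). Without control array 1 it was 1.18 ± 0.18 (SE, adjusted p = 0.0279 in limma), and without normalization it was 0.47. The second Idi1 probe set differed by 0.33 ± 0.52.

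Fdps, the synthase that joins these units into farnesyl diphosphate, had log2 signals of 9.52, 9.81, 9.38 and 9.47 with hydrogen water and of 9.48, 9.35, 8.65 and 9.29 in controls. The groups overlapped through control array 1, and control array 3 was the lowest of the 8. The difference was 0.35 ± 0.17 (SE, adjusted p = 0.424 in limma). It was 0.17 without control array 3 and 0.03 without normalization. The cytosolic thiolase Acat2, which condenses acetyl-CoA, differed by 0.19 ± 0.27 and mevalonate kinase Mvk by 0.02 ± 0.23. At its second probe set Mvk differed by 0.19 ± 0.14 (SE, adjusted p = 0.657 in limma). The groups did not overlap there, but only just, with the lowest hydrogen water value at 5.501 and the highest control at 5.499. Phosphomevalonate kinase Pmvk differed by 0.07 ± 0.14 and the decarboxylase Mvd by −0.18 ± 0.32. The sign of Mvk and Pmvk turned under median centring and without normalization, that of Mvk also under trimmed mean scaling, and that of Acat2 without normalization.

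The late steps, from farnesyl diphosphate to cholesterol, were represented by 11 enzymes, with a median difference of 0.16. Their entry enzyme, squalene synthase (Fdft1), ran against the neighbours on either side. It had log2 signals of 7.95, 8.35, 7.99 and 8.23 with hydrogen water and of 8.81, 8.59, 7.90 and 8.44 in controls. Control arrays 1, 2 and 4 lay above all hydrogen water arrays and control array 3 below them. The difference was −0.30 ± 0.18 (SE, adjusted p = 0.547 in limma), and the second probe set differed by −0.18 ± 0.17. The sign was negative under each scaling tried. The difference was −0.18 without control array 1, −0.48 without control array 3 and −0.64 without normalization.

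Sqle, which oxidizes squalene and is a rate-limiting step of the pathway, showed the clearest separation. Its log2 signals were 5.25, 6.00, 5.54 and 5.69 with hydrogen water and 5.15, 4.87, 4.71 and 4.86 in controls. The lowest hydrogen water array, array 1, lay just above the highest control, also an array 1. The means were 5.62 ± 0.31 with hydrogen water and 4.90 ± 0.18 in controls (SD, n = 4 each). They differed by 0.72 ± 0.19 (SE, adjusted p = 0.119 in limma, 95% confidence interval 0.30 to 1.14). Over the 21 other settings that measured it, the difference stayed above 0 and the adjusted p ran from 0.0939 to 0.271. It was 0.40 without normalization. Sqle was among the dimmer probe sets tested, and the filter that leaves out 75% of probe sets dropped it. Whether the differences of Fdft1 and Sqle differ from each other was not tested.

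Of the steps that turn lanosterol into cholesterol, the sterol reductase Tm7sf2 had log2 signals of 8.84, 9.37, 9.42 and 9.43 with hydrogen water and of 8.88, 8.35, 9.08 and 9.34 in controls. Hydrogen water arrays 2, 3 and 4 lay above all controls and array 1 among them. The difference was 0.36 ± 0.20 (SE, adjusted p = 0.529 in limma), 0.17 without control array 2 and 0.03 without normalization. Hsd17b7, a sterol ketoreductase, had log2 signals of 6.16, 6.29, 6.60 and 6.81 with hydrogen water and of 6.52, 6.03, 6.04 and 6.01 in controls. The other 3 controls lay below every hydrogen water array, and control array 1 lay among the hydrogen water values. The difference was 0.32 ± 0.18 (SE, adjusted p = 0.524 in limma), and 0.20 without hydrogen water array 4.

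The remaining late enzymes gave smaller or less even differences. Lanosterol demethylase (Cyp51) differed by 0.36 ± 0.25 (SE) and by 0.46 ± 0.22 at its second probe set. Lanosterol synthase (Lss) differed by 0.13 ± 0.17, the methylsterol oxidase Msmo1 by 0.07 ± 0.22 and Dhcr7, the reductase that ends the pathway, by 0.19 ± 0.22. For the desaturase Sc5d all 3 probe sets lay above 0, at 0.16 ± 0.09, 0.34 ± 0.18 and 0.32 ± 0.14. The sterol dehydrogenase Nsdhl and the sterol isomerase Ebp lay below 0, at −0.16 ± 0.10 and −0.13 ± 0.11. None of these passed, with adjusted p-values from 0.561 to 0.949 in limma at the first probe sets, and of 0.389 and 0.501 at the further probe sets of Sc5d and 0.438 at that of Cyp51. Without normalization Lss, Msmo1, Hsd17b7, Sc5d and Dhcr7 turned negative.

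**Figure D2:**
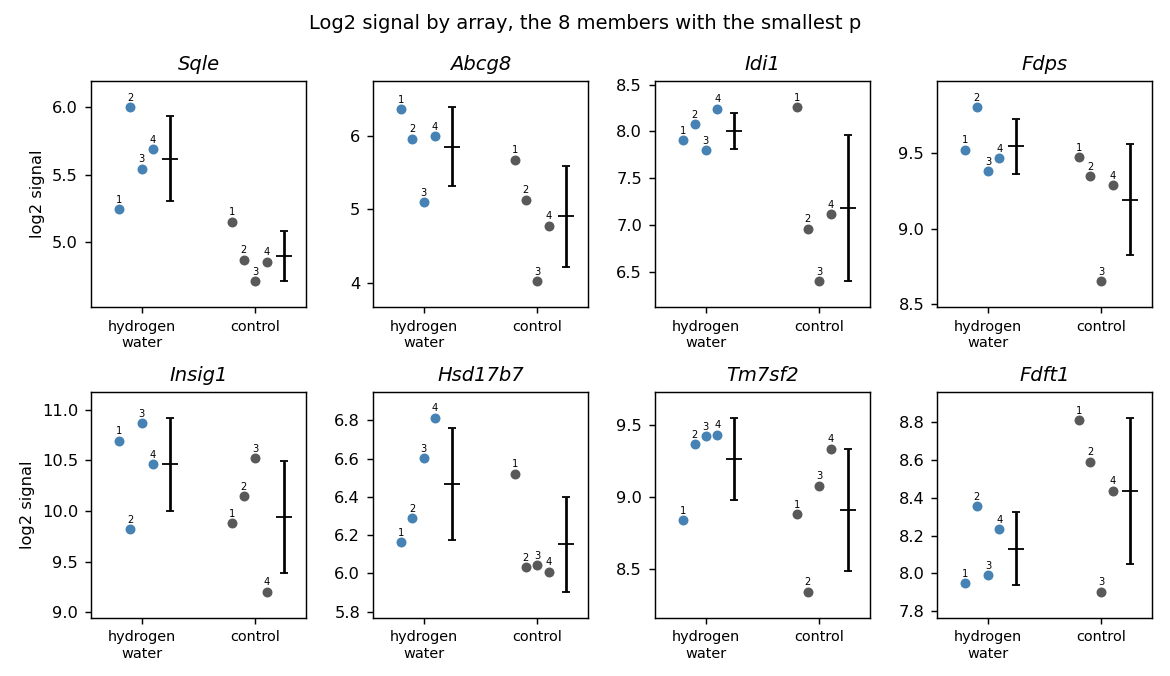
Log2 signal (vertical axis) of the 8 genes with the smallest p, by group (horizontal axis). Points are arrays, numbered as in the labels, and bars give the mean and SD of 4 arrays. Sqle alone has groups without overlap, and control array 1 is the highest control for Sqle, Abcg8, Idi1, Fdps, Hsd17b7 and Fdft1.

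The enzymes were uneven from array to array within the groups. Averaged over the 17 enzymes, each set to its own mean of 8 arrays, hydrogen water arrays 1 to 4 stood at −0.13, 0.16, 0.04 and 0.28 and control arrays 1 to 4 at 0.24, −0.27, −0.26 and −0.06. Control array 1 therefore lay with the higher hydrogen water arrays, and hydrogen water array 1 between the controls. Control array 1 held the highest of the 4 control values for 11 of 17 enzymes, against 25.8% of all tested probe sets. Hydrogen water array 1 held the highest value of its group for 0 of 17, against 24.8%, and arrays 2 and 4 of that group for 8 each. The spread within groups was wider than usual for these arrays: the median SD of the enzymes was 0.25 with hydrogen water and 0.33 in controls, against 0.20 in both groups over all tested probe sets.

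**Figure D3:**
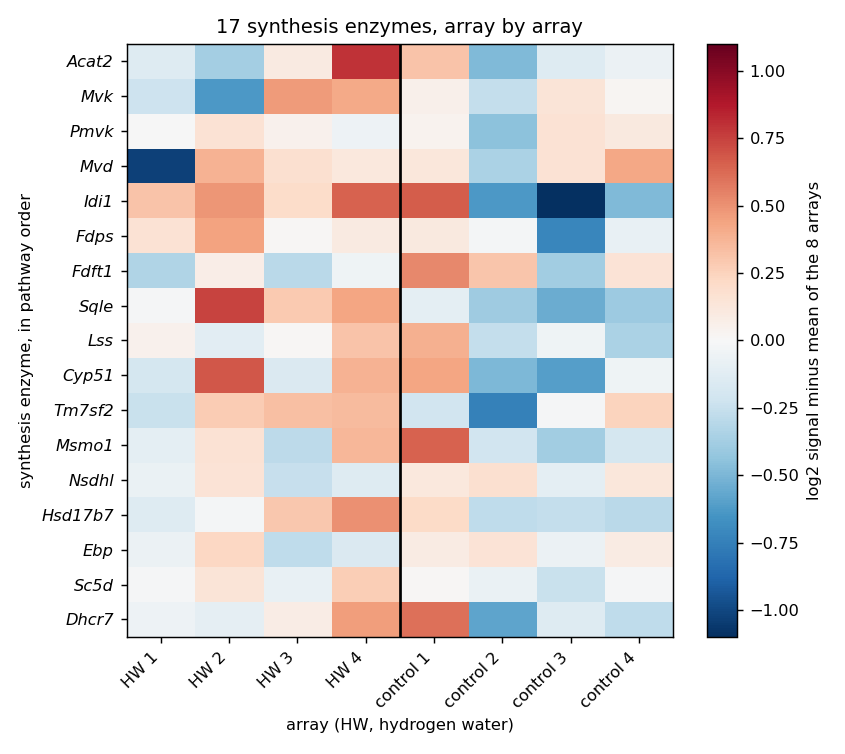
Log2 signal of each of the 17 synthesis enzymes (vertical axis, pathway order) on each array (horizontal axis), as the deviation from its mean over 8 arrays in colour. Control array 1 is above the mean for most enzymes, and control arrays 2 and 3 below it for most, with Idi1 lowest on control array 3.

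The proximal promoters of these enzymes were read for 3 short motifs that SREBP2 and its usual partners are known to bind. RefSeq start sites on GRCr8 gave a promoter for 15 of the 18 listed enzymes and for 25 of all 31 genes, and the 250 bases before the start were searched on both strands. CCAAT, the box of NF-Y, was found in 12 of 15 enzyme promoters, 8 of them with 2 or more copies. Over 27457 promoters of the same length, 1 for each gene, 34.3% held it and 9.77% held 2 or more. GGGCGG, the box of Sp1, was found in 13 of 15, against 32.4% of all. TCACNCCAC, a core of the sterol regulatory element, was found in 0 of 15 and in 0.976% of all, which says only that these letters are not in the windows. The 2 Sp1 boxes of Dhcr7 shared 1 base, and no other matches overlapped in the 25 promoters.

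Stretches of 3 promoters, chosen with the genes' values known, are shown because they carry the NF-Y box in enzymes that lay on different sides of 0. Capitals mark CCAAT or its complement ATTGG, each sequence runs toward the start site, and positions are on GRCr8. For Idi1 (chr17:66547525-66547624, minus strand) it ends at the base before the start, and for Fdps (chr2:176804867-176804966, minus strand) and Nsdhl (chrX:155817210-155817309, plus strand) 51 bases before it.
Idi1: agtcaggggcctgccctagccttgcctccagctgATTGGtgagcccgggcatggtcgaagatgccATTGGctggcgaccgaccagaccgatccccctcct
Fdps: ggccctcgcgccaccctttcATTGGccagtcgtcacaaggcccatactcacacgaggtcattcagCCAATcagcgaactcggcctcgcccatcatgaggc
Nsdhl: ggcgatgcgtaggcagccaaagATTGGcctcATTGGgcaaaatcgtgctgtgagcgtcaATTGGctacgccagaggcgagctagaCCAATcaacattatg
In the whole 250 bases Idi1 and Fdps held 2 boxes each and Nsdhl 5, one of them outside the stretch shown. The highest count among the enzymes, 5, was also that of Mvk, and Hsd17b7 and Msmo1 held 3 each.

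The genes that control SREBP2 gave a median difference of 0.09 over 4 genes, 3 above 0 and 1 below, and none passed in limma. Insig1, which retains SREBP2 in the endoplasmic reticulum and is itself a SREBP2 target, had log2 signals of 10.69, 9.82, 10.87 and 10.46 with hydrogen water and of 9.88, 10.15, 10.52 and 9.20 in controls. Hydrogen water arrays 1 and 3 were above all controls, and array 2 was below 3 of the 4. The difference was 0.52 ± 0.27 (SE, adjusted p = 0.486 in limma). It was 0.28 without control array 4 and 0.23 without normalization. Srebf2, which encodes SREBP2, differed by 0.11 ± 0.20 and its escort Scap by 0.06 ± 0.12, and both were negative without normalization. Insig2, a second retention protein, differed by −0.12 ± 0.08, and by −0.16 ± 0.09 at its second probe set. Its sign turned under spike-in scaling. Leaving out array 1 of either group moved the median to 0.17. It was 0.05 after removal of hydrogen water array 4, and 0.03 after removal of hydrogen water array 2 or of control array 4.

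The genes of uptake, transport and esterification gave a median of −0.04 over 4 genes. Scarb1, the HDL receptor SR-BI that takes up cholesterol esters, differed by −0.05 ± 0.13 (SE), and by 0.08 ± 0.13 at its second probe set. Npc2, the lysosomal carrier that hands on cholesterol from lipoproteins, differed by −0.03 ± 0.10. Stard4, a cytosolic sterol carrier, differed by −0.18 ± 0.14 and by −0.26 ± 0.15 at its second probe set. Lcat, the secreted enzyme that esterifies cholesterol on HDL, differed by 0.05 ± 0.06, with a 95% confidence interval of −0.07 to 0.18. Adjusted p-values in limma ran from 0.693 to 0.957. For all 4 genes the interval in the reported setting excluded a 1.5-fold change, as it did for 61.8% of all tested probe sets. Without normalization Stard4 differed by −0.54 ± 0.20, where the median of all tested probe sets was −0.33. Scarb1 and Npc2 turned positive under spike-in scaling, and Lcat negative without normalization.

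The efflux genes lay above 0 at all 3 members, with a median of 0.38, and none passed in limma. Without normalization the median was 0.03, where the median of all tested probe sets was −0.33. Abcg8 then lay at 0.64, Abcg5 at 0.03 and Abca1 at −0.21. Abcg8, which pairs with ABCG5 to pump sterols into bile, had log2 signals of 6.36, 5.96, 5.10 and 5.99 with hydrogen water and of 5.67, 5.13, 4.03 and 4.78 in controls. Array 3 was the lowest of its group on both sides, and the other 3 hydrogen water arrays lay above every control. The means were 5.85 ± 0.54 with hydrogen water and 4.90 ± 0.69 in controls (SD, n = 4 each). They differed by 0.95 ± 0.35 (SE, adjusted p = 0.283 in limma, 95% confidence interval 0.18 to 1.72). Like Sqle, Abcg8 was dim and was dropped by the filter that leaves out 75% of probe sets. Its partner Abcg5 had log2 signals of 8.02, 8.14, 7.27 and 8.03 with hydrogen water and of 7.87, 7.94, 7.00 and 7.13 in controls. Array 3 was again the lowest of each group, and hydrogen water arrays 1, 2 and 4 again lay above every control. The difference was 0.38 ± 0.25 (SE, adjusted p = 0.602 in limma), 0.58 without hydrogen water array 3 and 0.22 without control array 3.

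Abcg8 and Abcg5 lie head to head, with 205 bases between their start sites in the RefSeq annotation of GRCr8. Among genes on the plus strand, 7.07% have a start on the minus strand within 300 bases upstream. The stretch between both starts (chr6:15717731-15717935, plus strand, from Abcg8 on the left to Abcg5 on the right) is shown because it lies upstream of both genes. Its single NF-Y box, in capitals, lies at the Abcg5 end.
Abcg8-Abcg5: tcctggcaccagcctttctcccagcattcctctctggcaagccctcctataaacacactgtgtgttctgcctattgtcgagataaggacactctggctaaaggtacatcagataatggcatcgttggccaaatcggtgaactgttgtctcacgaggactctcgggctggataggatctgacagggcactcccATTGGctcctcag

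Abca1, which loads cholesterol onto apolipoprotein A-I at the cell surface, differed by 0.11 ± 0.09 (SE, adjusted p = 0.687 in limma) and turned negative without normalization. Its other 3 probe sets differed by 0.47 ± 0.39, −0.01 ± 0.20 and 0.55 ± 0.29, so the probe sets of this gene disagree in size and in sign. At the probe set with 0.47, hydrogen water array 3 lay at 9.51 and arrays 1, 2 and 4 at 7.44, 7.42 and 7.55. The median of the efflux genes was 0.58 without hydrogen water array 3 and 0.22 without control array 3.

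**Figure D4:**
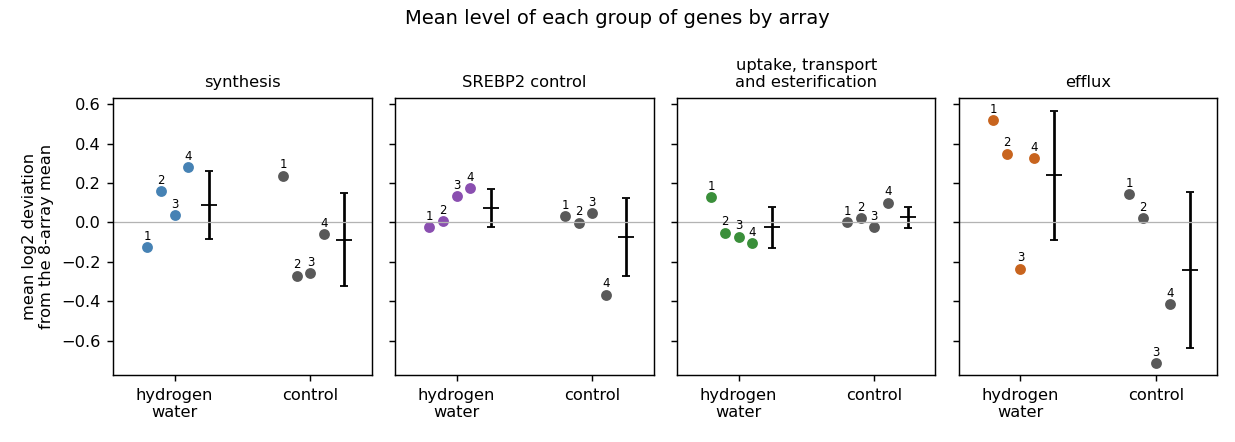
Mean log2 deviation from the 8-array mean (vertical axis) of each group of genes on each array, by group of rats (horizontal axis). Points are numbered arrays, bars the mean and SD of 4 arrays. Efflux genes are at 0.24 ± 0.33 with hydrogen water and −0.24 ± 0.40 in controls, and the 2 groups of arrays overlap in every panel.

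The 4 roles can be set side by side only as descriptions. The medians were 0.16 for synthesis, 0.09 for SREBP2 control, −0.04 for uptake, transport and esterification, and 0.38 for efflux. The number of members with a difference above 0 was 13 of 17, 3 of 4, 1 of 4 and 3 of 3. Differences between these medians were not tested. Second and further probe sets of the same genes, 16 of which passed the filter, had the sign of the first at 13. They were read on the same arrays as the first and are not independent of it. In limma 1 of the 16, of Sc5d, had an unadjusted p under 0.05, against 12.5% of all tested probe sets.

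**Figure D5:**
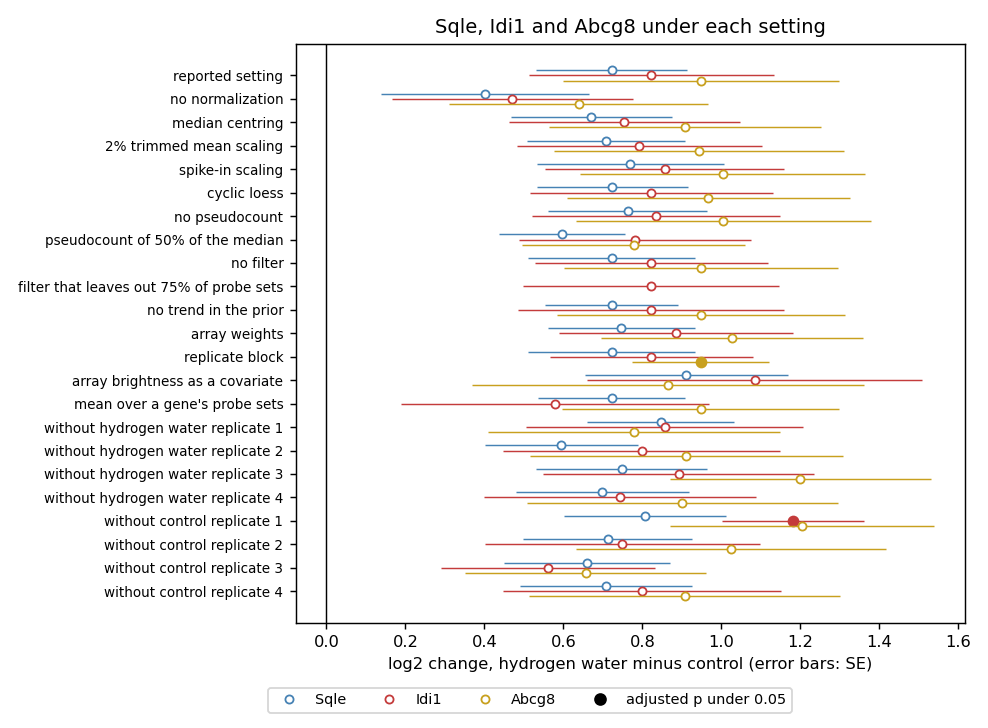
Log2 difference with SE (horizontal axis) of Sqle, Idi1 and Abcg8 under the reported setting and each alternative (vertical axis). Filled circles mark an adjusted p under 0.05, reached by Abcg8 with the replicate number as a block and by Idi1 without control array 1. All 3 genes lie above 0 in every setting shown.

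Around these genes, 49 others of the same metabolism were taken from general knowledge in 6 lists, and 41 had a probe set past the filter. None passed in limma. Of the 12 with an unadjusted p under 0.05, 6 were higher and 6 lower, against 12.5% of all tested probe sets. The groups did not overlap at 7, against 7.48% of all. The median over the 41 was 0.01. Electron donors and the supply of acetyl-CoA gave the largest median, 0.21 over 7 genes, with 6 of them above 0. Cyb5b, a membrane cytochrome b5, had a log2 signal of 8.51 ± 0.11 with hydrogen water and 8.10 ± 0.20 in controls (SD, n = 4 each). It differed by 0.41 ± 0.11 (SE, adjusted p = 0.141 in limma). Por, the reductase that passes electrons to squalene epoxidase and the cytochrome P450 enzymes, differed by 0.66 ± 0.27. Acss2, which makes acetyl-CoA from acetate, differed by 0.39 ± 0.17 and Acly, which makes it from citrate, by 0.21 ± 0.11. The other electron donors of the list, Cyb5a and Cyb5r3, differed by 0.02 ± 0.05 and −0.02 ± 0.11. The groups did not overlap for Cyb5b and Por, but only by narrow margins. The lowest hydrogen water value was 8.40 for Cyb5b and 10.04 for Por, and the highest control value 8.38 and 10.03. For Por, control array 4 lay far below the other controls, at 8.56.

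In the list of SREBP processing and sterol-regulated degradation, 8 genes gave a median of −0.08, with 3 above 0. Mbtps2, the protease that makes the second of the cuts that release SREBP from the membrane, differed by −0.38 ± 0.13 (SE) and Erlin1, a membrane protein of the endoplasmic reticulum that restrains SREBP activation, by −0.20 ± 0.09. Mbtps1, the protease of the earlier cut, differed by −0.11 ± 0.10 and Aup1, a factor of membrane protein degradation, by 0.07 ± 0.08. Among 8 genes of the isoprenoid branches the median was −0.05. Dhdds, which extends isoprenoids to dolichol precursors, differed by 0.52 ± 0.16 and had groups without overlap. The prenyltransferase subunits Fnta and Pggt1b differed by −0.32 ± 0.11 and 0.56 ± 0.29, and Coq2, of ubiquinone synthesis, by −0.07 ± 0.16. All adjusted p-values of these lists in limma were 0.195 or more.

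The 7 LXR receptors and targets gave a median of −0.07. Rxra, the dimer partner of LXR and of other nuclear receptors, differed by 0.39 ± 0.12 (SE, adjusted p = 0.184 in limma), and Lpcat3, which remodels membrane phospholipids, by −0.21 ± 0.07, both without overlap of the groups. Scd, the stearoyl-CoA desaturase, differed by −0.52 ± 0.21 and the sterol transporter Abcg1 by −0.18 ± 0.18. The LXR receptors themselves, Nr1h2 and Nr1h3, differed by −0.07 ± 0.09 and −0.06 ± 0.11. Of the 7, 2 lay above 0 and 5 below. Among 5 genes of lipoprotein uptake and lysosomal release, with a median of −0.02, the lysosomal acid lipase Lipa differed by −0.25 ± 0.07 (adjusted p = 0.160 in limma) without overlap. The START domain protein Stard3 differed by 0.21 ± 0.12, the hepatic lipase Lipc by −0.11 ± 0.07, and Vldlr was too dim to be tested. Among 6 genes of sterol esters, oxysterols and sterol carriers, with a median of 0.08, the sterol hydroxylase Cyp27a1 differed by 0.17 ± 0.06 without overlap. The sterol carrier Scp2 and the ester hydrolase Nceh1 differed by 0.09 ± 0.06 and 0.26 ± 0.28, and Ch25h was too dim to be tested.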

How the data were processed

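Rat liver cRNA, labelled with biotin, was measured on Affymetrix arrays according to the labels. The deposited values are intensities made by the authors with MAS5, per the submitters' processing notes. No version, scaling target or detection call is given in the sources used here, so dim signals cannot be set apart from background. The deposited intensities were quantile-normalized, a pseudocount of 2.05 (10% of the median) was added, and log2 was taken, which understates differences of dim probe sets. After removal of 57 control probe sets, those with a mean at or above the median entered limma 3.58.1 (lmFit, then eBayes with a trend, R 4.3.3) with Benjamini-Hochberg adjustment over 15521 probe sets at 0.05. Errors given as SE and intervals come from this fit. The number of arrays, 4 per group, limits the precision. Gene names came from the platform annotation, and all 28 matched the RefSeq table of GRCr8 by Entrez ID.

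Tested on data simulated for this comparison (15521 probe sets, 10 draws of 200 changes), the fit recovered 36.2% of 1.5-fold and 81.4% of 2-fold changes, with 5.53% of calls false. The changes were placed at random among all tested probe sets, whose median SE was 0.16. These shares therefore need not hold for members with a larger SE, such as Idi1 at 0.31 and Abcg8 at 0.35. Members and lists were chosen with earlier results of these data known. By the rule for named genes, values per array are given for the 8 members with the smallest p, and of each list of other genes up to 4 in order of p. The endothelial markers, Cyb5a, Cyb5r3, Nr1h2 and Nr1h3 lie outside it and were named after their values were seen. Alternatives were other scalings, pseudocounts, filters, priors, array weights, a block for the replicate number, array brightness as a covariate, other probe sets, a threshold of 0.10 and leaving out each array.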

Additional observations from a re-analysis of the deposited data

Results flagged for a closer look

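In 8 of 88 sets of 4 arrays, 1 array stood apart from the other 3 of its group at a probe set of these genes. The nominal level of this rule is 5% for independent sets. These sets share arrays and in part genes, and the share over all tested probe sets was not taken. Among the first probe sets, hydrogen water array 1 was low for Tm7sf2 (log2 signal 8.84) and high for Abca1 (8.83), hydrogen water array 3 was low for Abcg5 (7.27), and control array 1 was high for Hsd17b7 (6.52). Among the further probe sets, control array 4 was low for Mvk (5.22), control array 2 low for Hsd17b7 (4.60), hydrogen water array 4 high for Scarb1 (8.90) and hydrogen water array 3 high for Abca1 (9.51).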

How the results depend on the processing

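The number of members past the threshold was 0 in the reported setting and in 15 of the other settings that kept all 8 arrays, and 1 with the replicate number as a block (Abcg8, adjusted p = 0.0463 in limma). It ran from 0 to 1 when an array was left out, the 1 being Idi1 without control array 1. The labels do not say whether the replicate numbers pair the arrays. Deviations of same-numbered arrays correlated between −0.10 and 0.19. Of 4 hydrogen water arrays 1, array 3, was closest to the control of its own number. So few arrays cannot decide whether they were paired. The block gave 178 probe sets past the threshold, against 127. That count was 505 without normalization, 64 when the prior had no trend, 12 with array brightness as a covariate, 353 at an adjusted p of 0.10, and 56 to 196 when an array was left out. Of the calls, 54.3% were higher with hydrogen water, against 4.16% without normalization, 35% with median centring and 70.8% with spike-in scaling. Across all tested probe sets the median without normalization was −0.33, with 8.23% above 0. Role medians without normalization were −0.16 for synthesis, −0.26 for SREBP2 control, −0.35 for uptake, transport and esterification and 0.03 for efflux. The synthesis median then lay 0.17 above that of all tested probe sets, against 0.16 in the reported setting. With array brightness as a covariate the role medians were 0.40, 0.27, −0.13 and 0.35. With the second probe set the SREBP2 control median was −0.0917, over 2 genes. The causes were not tested. Signs turned without normalization for Acat2 (−0.12), Mvk (−0.34), Pmvk (−0.29), Lss (−0.23), Msmo1 (−0.28), Hsd17b7 (−0.0309), Sc5d (−0.16), Dhcr7 (−0.15), Srebf2 (−0.24), Scap (−0.29), Lcat (−0.17) and Abca1 (−0.21). They turned with median centring for Mvk (−0.0609), Pmvk (−0.0065) and Scap (−0.0033), with trimmed mean scaling for Mvk (−0.0231), and with spike-in scaling for Insig2 (0.0074), Scarb1 (0.0112) and Npc2 (0.0576). They also turned with the brightness covariate for Mvd (0.24), with gene means for Scarb1 (0.0134), and at the second probe set for Scap (−0.0276) and Scarb1 (0.0795). Leaving out an array turned the sign of Acat2 (−0.0450 to 0.34), Mvk (−0.14 to 0.23), Pmvk (−0.0645 to 0.14), Mvd (−0.34 to 0.13), Msmo1 (−0.0498 to 0.30), Srebf2 (−0.0259 to 0.27), Scap (−0.00017 to 0.15), Scarb1 (−0.17 to 0.0371) and Npc2 (−0.0961 to 0.0504). The other 19 members kept their sign in those fits. The filter that leaves out 75% of probe sets dropped 7 members, Sqle and Abcg8 among them.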
